A study of Mus musculus with 16 samples.

Results

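MHC class II molecules carry peptides from ingested proteins to the cell surface, where helper T cells read them. The 10 genes described here were taken by symbol from the 54532 gene identifiers of each library. They were the presenting chains H2-Aa, H2-Ab1 and H2-Eb1, the invariant chain Cd74, the peptide editor chains H2-DMa, H2-DMb1 and H2-DMb2, the editor's inhibitor chains H2-Oa and H2-Ob, and the transactivator Ciita. All 10 symbols matched 1 identifier each.

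The 16 RNA libraries were made from mouse macrophages grown out of bone marrow. M-CSF, a cytokine that turns marrow cells into macrophages, was present at 20 ng/mL over 7 days. Culture went on for 24 h, either in plain medium (naive) or in 70% medium conditioned by YUMM1.7 (TCM), a mouse melanoma line. The labels do not say which cells lose JMJD3, which Cre was used, or the strain, age and sex of the mice. The groups were TRAP1 KO TCM (n = 4), WT TCM (n = 3) and WT naive (n = 3), and, from a line with its own wild type, JMJD3 cKO TCM (n = 3, a conditional knockout) and JMJD3 WT TCM (n = 3). TRAP1 is the HSP90 paralog found in mitochondria, and JMJD3, encoded by Kdm6b, is a histone demethylase. Every JMJD3 line library had TCM, so that line has no naive reference. Every TRAP1 KO library had TCM as well. The series asked how melanoma medium and these genes shape macrophages.

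Cells that present antigen make an alpha and a beta chain, which pair in the endoplasmic reticulum around the invariant chain Cd74. Cd74 blocks the peptide groove and guides the complex to endosomes, where cathepsins cut it down to a short remnant. The DM editor then swaps that remnant for a peptide, and DO, found mostly in B cells and some dendritic cells, restrains DM. Transcription of these genes is switched by CIITA, a coactivator that binds no DNA itself and docks on factors held at the X and Y boxes of their promoters. In macrophages the classical inducer of Ciita is interferon gamma, acting through JAK kinases.

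The promoters of the class II genes are shown because their X and Y boxes are the site where CIITA acts. Sequences were taken from RefSeq (GRCm38.p6), whose promoter table held 7 of the 10 genes. They are printed 5′ to 3′ on the strand of the gene, with the X letters GNAAC and the Y letters ATTGG in capitals. The windows lay at chr17:34287857-34287916 (minus strand) for H2-Aa, chr17:34305764-34305822 (plus strand) for H2-Eb1, chr17:34238806-34238862 (plus strand) for H2-Ob and chr17:34145107-34145173 (plus strand) for H2-DMb2. The first 3 lie just upstream of their gene's annotated start, the H2-DMb2 window lies in an intron of its gene, and none holds an annotated exon.
H2-Aa: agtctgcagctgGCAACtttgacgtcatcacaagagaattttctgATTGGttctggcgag
H2-Eb1: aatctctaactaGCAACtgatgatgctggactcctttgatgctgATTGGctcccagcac
H2-Ob: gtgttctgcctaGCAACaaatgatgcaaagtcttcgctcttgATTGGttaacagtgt
H2-DMb2: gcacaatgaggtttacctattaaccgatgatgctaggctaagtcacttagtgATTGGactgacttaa

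In H2-Aa, H2-Eb1 and H2-Ob the same GCAAC stood 28, 27 and 25 bases before ATTGG. The pair GNAAC, 15 to 30 bases, ATTGG was searched on both strands in the 250 bases before each start. It was found in 5 of the 7 class II promoters (H2-Aa, H2-Eb1, H2-DMb1, H2-Oa and H2-Ob), against 2.353% of 32851 mouse promoters. The longer Y letters TGATTGG, which contain ATTGG, were in 6 of the 7, against 7.23% of all promoters. H2-DMb2 held the Y letters and not the pair, and H2-DMa held no pair. ATTGG alone is common, at 33.85% of all promoters. A match describes letters and is no evidence of binding.

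Of the members, 8 sit together on chromosome 17 (mm10) between bases 34092340 and 34316674, a span of 224 kb. Ciita (ENSMUSG00000022504) lies at chr16:10480059-10528418, 6.4 Mb from Trap1, the gene removed in the TRAP1 knockout. Cd74 (ENSMUSG00000024610) lies at chr18:60803848-60812652. Some members share exon bases with a neighbour on the opposite strand, and the strand setting of the counting is not given. H2-DMa shares 360 of 3448 exon bases with Brd2, Ciita 329 of 9535 with Dexi, and H2-Oa 321 of 1407 with BC051537. H2-DMb1 and H2-DMb2 are close copies: 22.65% of the 50-base windows of H2-DMb1 occur in H2-DMb2. Reads of these pairs may have been divided between them, so their separate values are uncertain.

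Library totals ran from 15361604 to 22426820 counts. Levels are given as CPM, counts scaled to library size, after TMM scaling over the 16 libraries, and fold changes as log2 ± SE from edgeR's quasi-likelihood test. A gene was called at a Benjamini-Hochberg adjusted p under 0.05, adjusted over all genes tested. Labels do not say whether replicates were separate animals or cultures, so p-values cover the scatter among libraries, which may be technical. Trap1 had 3 counts in all across the 4 TRAP1 KO TCM libraries (0.0377 CPM) and 67.7 CPM in WT TCM. Kdm6b was 25.6 CPM in libraries labelled JMJD3 cKO TCM and 25.1 CPM in JMJD3 WT TCM (log2 0.04 ± 0.07, adjusted p = 0.75). The exons removed by the conditional allele are not given, and a whole-gene count does not check a partial deletion. Xist, made from an inactive X chromosome, had 919 and 845 CPM in JMJD3 cKO TCM and JMJD3 WT TCM and at most 0.0143 CPM in the other groups, where Y-linked Ddx3y was 85.2 to 87.2 CPM. The JMJD3 line therefore stands apart in more than its label. As a check of the cell type, 8 macrophage markers summed to 13000 to 26300 CPM in every library. T and NK cell markers summed to at most 1.64 CPM, and 6 melanocyte markers to 78.8 to 106 CPM, nearly all of it Mitf, which macrophages make.

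The first question was what melanoma medium did to class II genes in wild-type macrophages. The machinery split: the presenting chains, Cd74 and Ciita fell, while the DM editor chains H2-DMa and H2-DMb1 rose. The inhibitor chain H2-Ob was called higher too, but on few counts. Of the 9 members tested, 3 were called higher and 5 lower. In a fit of WT TCM and WT naive alone, H2-Ob did not pass the filter, and 2 were called higher and 5 lower. Of all 14078 genes tested, 42.2% were called, 21.6% higher and 20.6% lower. The median log2 change over the 9 members was -0.92, against -0.007 over all genes.

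H2-Aa, the A alpha chain, had 15.2, 18.8 and 18.8 CPM in WT TCM, against 53.9, 54.2 and 49.9 CPM in WT naive. The groups were far apart, and the change was -1.59 ± 0.06 (adjusted p = 2.7e-32). H2-Ab1, its beta partner, had 34.3, 39.3 and 36.6 CPM in WT TCM, against 67.8, 69.0 and 71.2 CPM in WT naive. It fell less, by 0.92 ± 0.05 on the log2 scale (adjusted p = 1.5e-32), again with no overlap. H2-Eb1, the E beta chain, had 9.39, 10.0 and 11.8 CPM in WT TCM, against 32.6, 34.0 and 34.7 CPM in WT naive. Its change of -1.71 ± 0.08 (adjusted p = 5.2e-36) was the deepest of the presenting chains. Cd74 had 110, 103 and 108 CPM in WT TCM, against 250, 254 and 257 CPM in WT naive. All WT TCM libraries were below all WT naive libraries, at -1.24 ± 0.03 (adjusted p = 6.4e-58).

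Ciita was scarce in every library of this line. It had 0.656, 0.386 and 0.317 CPM in WT TCM (25 counts in all) and 1.47, 2.28 and 1.6 CPM in WT naive (119 counts). The WT TCM libraries were all lower, and the change was -1.94 ± 0.36 (adjusted p = 2.7e-06).

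The editor went the other way. H2-DMa had 22.6, 19.3 and 25.7 CPM in WT TCM, against 18.1, 16.9 and 18.3 CPM in WT naive, a rise of 0.34 ± 0.08 (adjusted p = 0.00018). H2-DMb1 had 32.1, 33.3 and 34.3 CPM in WT TCM, against 27.6, 29.1 and 25.1 CPM in WT naive, a rise of 0.28 ± 0.06 (adjusted p = 8.2e-05). Neither gene's groups overlapped, but both shifts were small beside those of the presenting chains. H2-DMb2, the minor beta chain copy, had 1.51, 1.21 and 1.71 CPM in WT TCM, against 0.782, 1.29 and 1.04 CPM in WT naive. These values overlapped and the gene was not called (0.50 ± 0.32, adjusted p = 0.21). Brd2, which overlaps H2-DMa, fell by 0.25 ± 0.02 on the log2 scale.

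H2-Ob, the DO beta chain, had 0.807, 0.717 and 0.38 CPM in WT TCM, against 0.046, 0.129 and 0.189 CPM in WT naive. The groups did not overlap, and the change was 2.36 ± 0.59 (adjusted p = 0.00049), but it rests on 35 counts in WT TCM and 8 in WT naive. H2-Ob did not pass the filter in a fit of these groups alone, where 7 members were called, nor did it or Ciita at a minimum of 50 counts, where 6 were. H2-Oa, the DO alpha chain, had 0.252, 0.276 and 0.0634 CPM in WT TCM and 0.276, 0 and 0.0471 CPM in WT naive. It passed the filter on low counts in no comparison, and its libraries held 0 to 14 counts each over the 16.

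**Figure D1:**
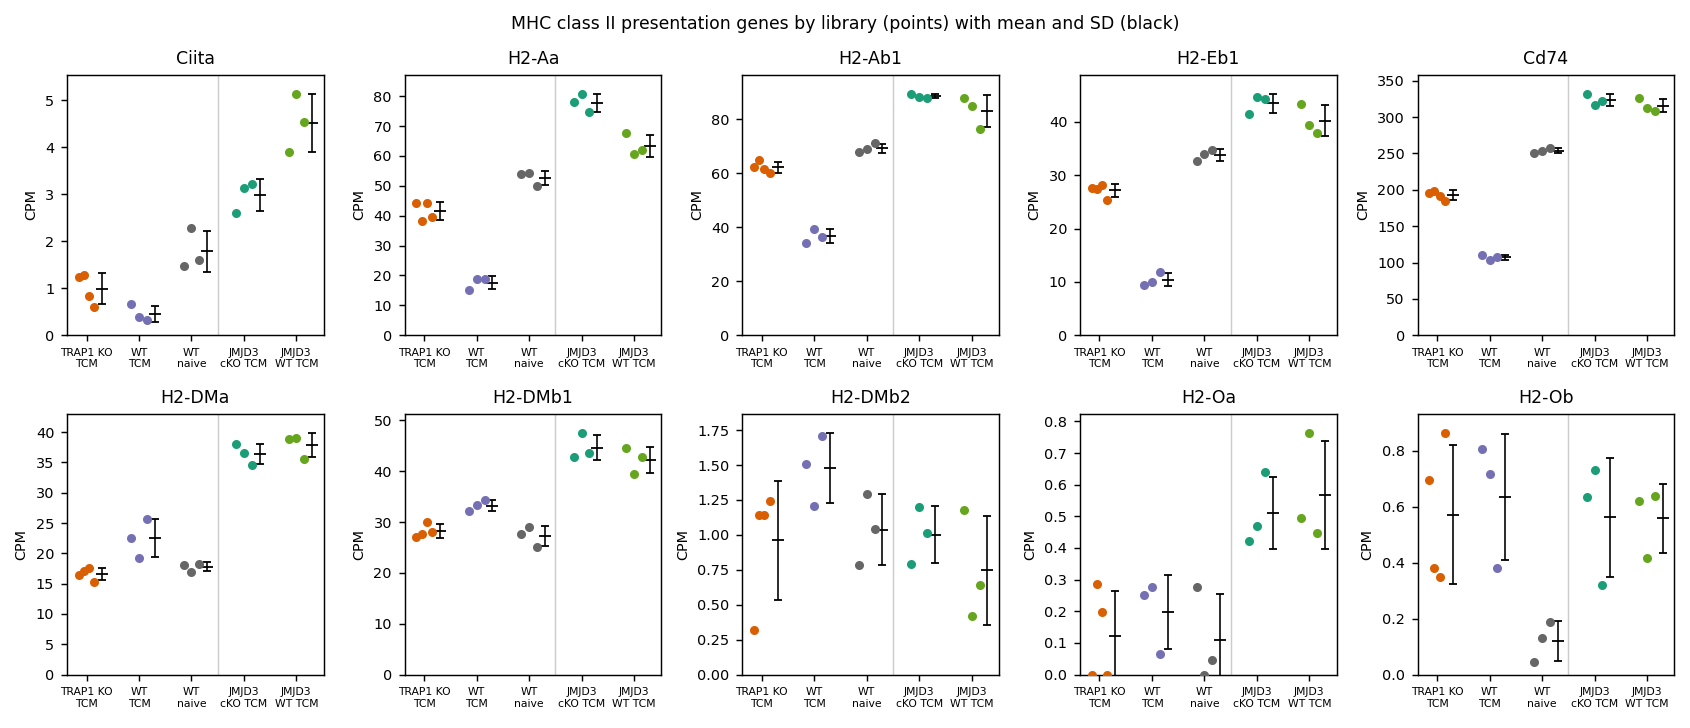
Level of each of the 10 genes (CPM, linear axis from 0) in each library, with the group mean and SD in black. WT TCM is the lowest group for H2-Aa, H2-Ab1, H2-Eb1, Cd74 and Ciita, whereas for H2-DMa and H2-DMb1 it lies above TRAP1 KO TCM and WT naive, and the JMJD3 line is high for all 7 of these genes.

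Marker genes of other cells moved with the fall. The summed level of 6 fibroblast markers was 0.166 to 0.404 CPM in WT TCM and 13.3 to 14.4 CPM in WT naive, with Col3a1, Dcn and Pdgfra at 0 counts in WT TCM. For 8 neutrophil markers the sum was 4.09 to 5.46 CPM in WT TCM and 50.1 to 54.1 CPM in WT naive. Both sums were lower in WT TCM, and their part in the class II result was not tested. B cell and dendritic cell markers matter more directly, since those cells make class II constitutively. Cd209a had 0 counts in WT TCM and 3 in WT naive. Flt3 had 3 and 5 counts, Clec9a 8 and 23, and Xcr1 25 and 66, in WT TCM and WT naive. Ccr7 had 9 and 17 there, Dpp4 5 and 16, and Siglech 0 and 10, while Batf3 had 109 and 82 and Zbtb46 27 and 20. The 10 dendritic cell markers summed to 44.3 to 49.7 CPM in WT TCM and 45.7 to 48.2 CPM in WT naive, nearly all of it Itgax, an integrin that macrophages also make. The 9 B cell markers summed to 96.9 to 111 CPM in WT TCM and 154 to 159 CPM in WT naive, mostly Blnk. Among them Ms4a1 had 9 counts in WT TCM and 31 in WT naive, and Ighm 204 and 134. The part of both lists was not tested. In bulk RNA, fewer cells that express a gene and less RNA per cell cannot be told apart.

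The second question was whether class II genes in melanoma medium differed with TRAP1 loss. No TRAP1 KO library was naive, so a difference already present without the medium cannot be told apart. The comparison of TRAP1 KO TCM with WT TCM shares the WT TCM libraries with the medium comparison, so the directions of the 2 are tied through them. The presenting chains, Cd74 and Ciita rose in TRAP1 KO TCM, and H2-DMa and H2-DMb1 fell. That is 5 members called higher and 2 lower of 9 tested, where 42.2% of all 14078 genes were called, 21.2% higher and 21.0% lower. The median over the members was 0.77, against 0.009 over all genes.

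H2-Aa had 44.2, 38.4, 44.3 and 39.7 CPM in TRAP1 KO TCM, against 15.2 to 18.8 CPM in WT TCM. Its groups were well separated, at 1.26 ± 0.06 (adjusted p = 6e-27). H2-Ab1 had 62.3, 64.8, 61.6 and 60.2 CPM in TRAP1 KO TCM, against 34.3 to 39.3 CPM in WT TCM, a rise of 0.77 ± 0.04 (adjusted p = 3.6e-28). H2-Eb1 had 27.7, 27.4, 28.2 and 25.3 CPM in TRAP1 KO TCM, against 9.39 to 11.8 CPM in WT TCM. As a fold this was the largest among the presenting chains, at 1.40 ± 0.07 (adjusted p = 2.5e-30). Cd74 had 196, 199, 192 and 184 CPM in TRAP1 KO TCM, against 103 to 110 CPM in WT TCM, a rise of 0.86 ± 0.03 (adjusted p = 4.8e-46). In all 4 genes every TRAP1 KO TCM library was above every WT TCM library. The share of all genes separated in this way was not counted.

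Ciita had 1.23, 1.28, 0.845 and 0.594 CPM in TRAP1 KO TCM (78 counts), against 0.656, 0.386 and 0.317 CPM in WT TCM (25 counts). The lowest TRAP1 KO TCM library lay below the highest WT TCM library. The rise of 1.10 ± 0.38 (adjusted p = 0.013) was called, but the call ended without WT TCM replicate 2 (0.98, adjusted p = 0.058), without WT TCM replicate 3 (0.91, adjusted p = 0.07) or without TRAP1 KO TCM replicate 2 (0.94, adjusted p = 0.058). The calls of H2-Aa, H2-Ab1, H2-Eb1 and Cd74 held in all 16 alternatives run. Dexi, which overlaps Ciita, was not called in this comparison (-0.04 ± 0.10).

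The editor chains were lower in the knockout. H2-DMa had 16.4, 17.1, 17.5 and 15.3 CPM in TRAP1 KO TCM, against 22.6, 19.3 and 25.7 CPM in WT TCM, a change of -0.43 ± 0.07 (adjusted p = 1.1e-06). H2-DMb1 had 27.1, 27.6, 30.1 and 28.1 CPM in TRAP1 KO TCM, against 32.1, 33.3 and 34.3 CPM in WT TCM, a change of -0.23 ± 0.06 (adjusted p = 0.00082). For both genes no TRAP1 KO TCM library reached the WT TCM range. H2-DMb2 had 0.321, 1.14, 1.14 and 1.24 CPM in TRAP1 KO TCM, against 1.21 to 1.71 CPM in WT TCM. Replicate 1 lay far below the other 3, and the gene was not called (-0.60 ± 0.30, adjusted p = 0.11). H2-Ob, with 0.348 to 0.863 CPM in TRAP1 KO TCM and 0.38 to 0.807 CPM in WT TCM, was not called either (-0.19 ± 0.42, adjusted p = 0.76). H2-Oa had 10 counts in TRAP1 KO TCM (0.121 CPM) and 11 in WT TCM (0.197 CPM).

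Set against WT naive, TRAP1 KO TCM was lower in each presenting chain, in Cd74 and in Ciita. As a share of the WT naive mean, TRAP1 KO TCM had 79.1% ± 5.79 of H2-Aa, 89.7% ± 2.8 of H2-Ab1, 80.4% ± 3.76 of H2-Eb1, 76.0% ± 2.6 of Cd74 and 55.4% ± 18.4 of Ciita (SD, n = 4). H2-DMa and H2-DMb1 were at 93.4% ± 5.48 and 103% ± 4.86 of WT naive. These groups differ in both medium and genotype, and no test was run between them.

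Fibroblast markers also moved with this difference, at 4.71 to 6.96 CPM in TRAP1 KO TCM and 0.166 to 0.404 CPM in WT TCM. Dendritic cell markers summed to 13.7 to 17.6 CPM in TRAP1 KO TCM and 44.3 to 49.7 CPM in WT TCM, with Itgax, a gene that macrophages also express, at 14.7 and 42.7 CPM. Within that list Flt3 had 0.139 CPM in TRAP1 KO TCM (11 counts) and 0.0591 CPM in WT TCM (3 counts). Ccr7 had 0.316 CPM (25 counts) and 0.168 CPM (9 counts) in those groups. B cell markers summed to 88.4 to 91.2 CPM in TRAP1 KO TCM and 96.9 to 111 CPM in WT TCM, while the B cell gene Ighm was 15.2 CPM in TRAP1 KO TCM and 3.82 CPM in WT TCM. Clec9a had 0.0513 CPM in TRAP1 KO TCM (4 counts) and 0.14 CPM in WT TCM (8 counts). Batf3 had 0.354 CPM (28 counts) and 2.02 CPM (109 counts) in those groups. Monocyte markers summed to 148 to 156 CPM in TRAP1 KO TCM and 98.4 to 105 CPM in WT TCM, most of it Ccr2 (147 and 92.0 CPM), while Cx3cr1 had 3.59 and 8.62 CPM. The part of these lists was not tested.

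**Figure D2:**
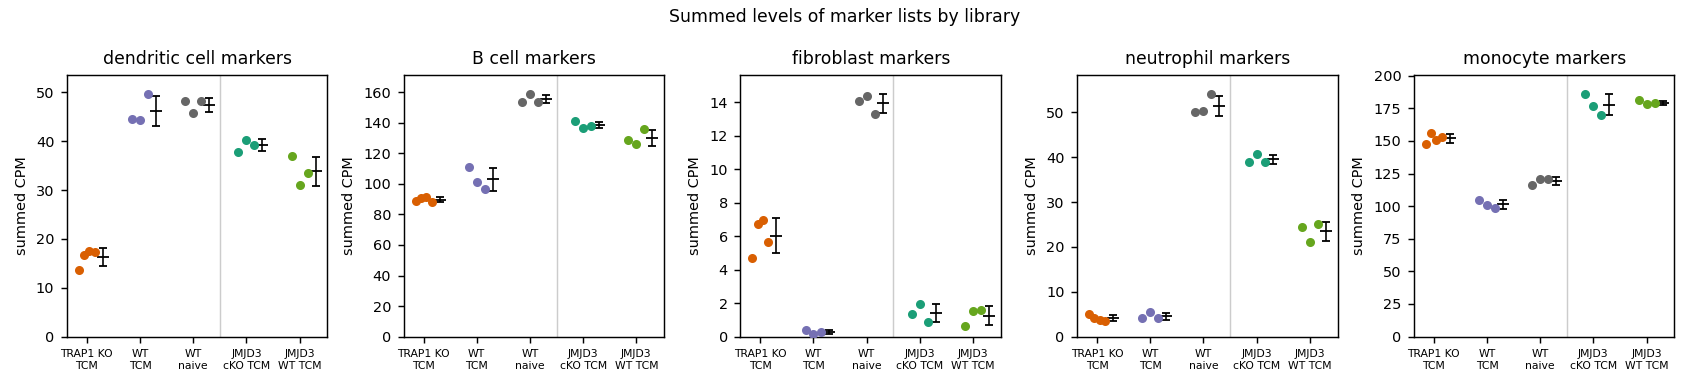
Summed CPM of the dendritic cell, B cell, fibroblast, neutrophil and monocyte marker lists in each library, with mean and SD. Fibroblast markers were 4.71 to 6.96 CPM in TRAP1 KO TCM, 0.166 to 0.404 CPM in WT TCM and 13.3 to 14.4 CPM in WT naive, and dendritic cell markers were lowest in TRAP1 KO TCM.

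The third question was whether JMJD3 shaped class II genes in the same medium. H2-Aa was called higher and Ciita lower in libraries labelled JMJD3 cKO TCM, 2 of 9 tested. That count varied with the scaling and with the libraries kept, as given below. Of all 13476 genes tested, 35.1% were called, 17.3% higher and 17.8% lower. The median over the members was 0.08, against 0.008 over all genes.

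H2-Aa had 78.2, 80.6 and 74.7 CPM in libraries labelled JMJD3 cKO TCM, against 67.6, 60.6 and 61.9 CPM in JMJD3 WT TCM. The groups did not overlap, and the change was 0.30 ± 0.05 (adjusted p = 1.2e-06). Ciita had 2.59, 3.13 and 3.21 CPM in libraries labelled JMJD3 cKO TCM (179 counts), against 3.9, 5.13 and 4.53 CPM in JMJD3 WT TCM (208 counts). All were below the JMJD3 WT TCM range, at -0.59 ± 0.18 (adjusted p = 0.0095), but the call ended without JMJD3 WT TCM replicate 2 (-0.49, adjusted p = 0.062). The transactivator and this alpha chain changed in opposite directions.

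The other presenting genes were not called. H2-Ab1 had 89.5, 88.5 and 88.0 CPM in libraries labelled JMJD3 cKO TCM and 88.1, 85.0 and 76.4 CPM in JMJD3 WT TCM (0.10, 95% interval 0.01 to 0.19, adjusted p = 0.088). H2-Eb1 had 41.4, 44.7 and 44.3 CPM in libraries labelled JMJD3 cKO TCM and 43.4, 39.5 and 37.9 CPM in JMJD3 WT TCM (0.11 ± 0.06, adjusted p = 0.13). Cd74 had 332, 316 and 322 CPM in libraries labelled JMJD3 cKO TCM and 326, 312 and 309 CPM in JMJD3 WT TCM (0.04, 95% interval -0.02 to 0.10, adjusted p = 0.34). All 3 overlapped between the groups. The 95% intervals of the 3 ended at 0.19, 0.23 and 0.10, and a missed threshold does not show equal levels.

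H2-DMa, at 34.6 to 38.0 CPM in libraries labelled JMJD3 cKO TCM and 35.6 to 39.1 CPM in JMJD3 WT TCM, was not called (-0.06 ± 0.06, adjusted p = 0.51). Neither was H2-DMb1, at 42.9 to 47.5 CPM in libraries labelled JMJD3 cKO TCM and 39.5 to 44.5 CPM in JMJD3 WT TCM (0.08 ± 0.06, adjusted p = 0.29). H2-DMb2 had 60 counts in libraries labelled JMJD3 cKO TCM and 35 in JMJD3 WT TCM (0.41 ± 0.38, adjusted p = 0.44). H2-Ob had 33 and 26 counts in those groups (-0.02 ± 0.45, adjusted p = 0.98), and H2-Oa 31 and 26. With library totals in place of TMM scaling, the median of all genes moved to 0.0892 and 6 members were called, with H2-Ab1 at 0.18, H2-Eb1 at 0.19, Cd74 at 0.12 and H2-DMb1 at 0.16. Without JMJD3 WT TCM replicate 1, 4 members were called, with H2-Ab1 at 0.14 and H2-Eb1 at 0.17. Without JMJD3 WT TCM replicate 2, H2-Aa was the 1 member called. Neutrophil markers summed to 38.9 to 40.6 CPM in libraries labelled JMJD3 cKO TCM and 21.1 to 25.0 CPM in JMJD3 WT TCM. Dendritic cell markers summed to 37.9 to 40.3 CPM in libraries labelled JMJD3 cKO TCM and 31.1 to 37.0 CPM in JMJD3 WT TCM. Within that list Itgax had 30.7 and 21.3 CPM, and Xcr1 193 and 365 counts, in those groups. B cell markers summed to 137 to 141 CPM in libraries labelled JMJD3 cKO TCM and 126 to 136 CPM in JMJD3 WT TCM. The B cell gene Ms4a1 alone had 50 and 99 counts there. Their part in the H2-Aa and Ciita values was not tested.

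**Figure D3:**
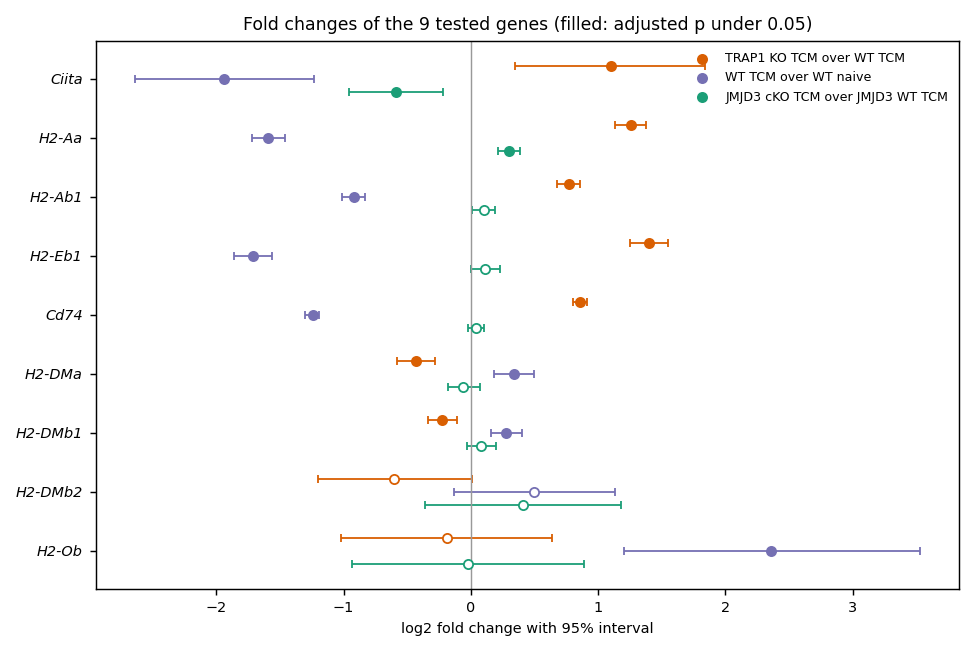
Log2 fold change with its 95% interval for the 9 tested genes in the 3 comparisons, filled where the adjusted p was under 0.05. The TRAP1 KO TCM over WT TCM and WT TCM over WT naive values lie on opposite sides of 0 for H2-Aa, H2-Ab1, H2-Eb1, Cd74, Ciita, H2-DMa and H2-DMb1, and share the WT TCM libraries, while for JMJD3 only H2-Aa and Ciita are filled.

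Whether the knockouts differed in their effect was tested directly in a fit of all 16 libraries, as the TRAP1 change minus the JMJD3 change. Of 9 members, 5 were called with a positive difference and 2 with a negative one, where 37.9% of 14545 genes were called, 18.4% positive and 19.5% negative. The positive ones were Ciita (1.68 ± 0.41, adjusted p = 0.00037), H2-Eb1 (1.29 ± 0.10), H2-Aa (0.95 ± 0.08), Cd74 (0.81 ± 0.04) and H2-Ab1 (0.67 ± 0.06). The negative ones were H2-DMa (-0.37 ± 0.10, adjusted p = 0.0011) and H2-DMb1 (-0.31 ± 0.08, adjusted p = 0.0012). H2-DMb2 (-1.01 ± 0.49, adjusted p = 0.099) and H2-Ob (-0.18 ± 0.63, adjusted p = 0.86) were not called. The knockouts were made in different lines, so the difference between TRAP1 and JMJD3 and that between the lines cannot be told apart.

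The wild types of the lines also differed. JMJD3 WT TCM exceeded WT TCM in 7 of the 9 members tested and was lower in 1, where 61.3% of 14545 genes were called, 30% higher and 31.3% lower. Ciita stood 3.26 ± 0.29 higher, with 3.9 to 5.13 CPM in JMJD3 WT TCM and 0.317 to 0.656 CPM in WT TCM (adjusted p = 1.2e-17). H2-Eb1 was higher by 1.96 ± 0.08, H2-Aa by 1.86 ± 0.07, Cd74 by 1.56 ± 0.03 and H2-Ab1 by 1.18 ± 0.05. Here the editor chains went the same way as the presenting chains, with H2-DMa higher by 0.75 ± 0.07 and H2-DMb1 by 0.35 ± 0.06. H2-DMb2 was called lower (-0.96 ± 0.37, adjusted p = 0.018), a call that ended without WT TCM replicate 3 (-0.86), JMJD3 WT TCM replicate 2 (-0.69) or JMJD3 WT TCM replicate 3 (-0.86). H2-Ob was not called (-0.20 ± 0.46). H2-Oa, untested, had 7 to 11 counts per library in JMJD3 WT TCM and 1 to 5 in WT TCM. Dendritic cell markers summed to 31.1 to 37.0 CPM in JMJD3 WT TCM, against 44.3 to 49.7 CPM in WT TCM, and B cell markers to 126 to 136 CPM and 96.9 to 111 CPM in those groups. Single markers went both ways, with Xcr1 at 365 counts in JMJD3 WT TCM and 25 in WT TCM, and the mean of Itgax at 21.3 CPM in the JMJD3 WT TCM libraries against 42.7 CPM in WT TCM. Their part was not tested, and line, sex and set cannot be told apart.

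Across the 5 groups, H2-Aa, H2-Ab1, H2-Eb1 and Cd74 kept 1 order of mean levels: WT TCM lowest, then TRAP1 KO TCM, WT naive, JMJD3 WT TCM and JMJD3 cKO TCM. Neighbours in that order did not overlap, except for the JMJD3 groups in H2-Ab1, H2-Eb1 and Cd74. How common such gaps are over all genes was not counted. Ciita differed in having JMJD3 WT TCM highest, and its WT TCM and TRAP1 KO TCM libraries overlapped. The summed CPM of the 10 genes was 371 ± 10.8 in TRAP1 KO TCM, 230 ± 6.52 in WT TCM and 457 ± 4.4 in WT naive. It was 619 ± 7.13 in JMJD3 cKO TCM and 589 ± 22.9 in JMJD3 WT TCM. Over the 16 libraries, log2 Ciita followed Cd74 with r = 0.926, H2-Ab1 with 0.882, H2-Aa with 0.856 and H2-Eb1 with 0.855. It followed H2-DMa with 0.677, H2-DMb1 with 0.586, H2-Ob with -0.094 and H2-DMb2 with -0.477. These r values describe libraries that share groups and lines.

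Per exon length, Cd74 was the most abundant member in every group. In CPM per kb it had 115 ± 3.93 in TRAP1 KO TCM, 63.8 ± 2.04 in WT TCM and 151 ± 2.13 in WT naive. H2-Ab1 came next in WT naive, at 27.0 ± 0.672 CPM per kb, followed by H2-Eb1 at 17.4 ± 0.547, H2-DMb1 at 16.2 ± 1.19 and H2-Aa at 13.9 ± 0.635. In WT TCM H2-DMb1, at 19.8 ± 0.656 CPM per kb, lay above H2-Ab1 at 14.3 ± 0.978. That rank depends on the length used: with the longest transcript, H2-Ab1 had 30.3 and H2-DMb1 23.7 CPM per kb in WT TCM. H2-DMb2, H2-Oa, H2-Ob and Ciita stayed below 1 CPM per kb in every group.

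The balance within the set also shifted. The ratio of H2-DMa to H2-Ab1, in CPM per kb, was 0.198 ± 0.00946 in TRAP1 KO TCM, 0.46 ± 0.0825 in WT TCM and 0.191 ± 0.00806 in WT naive. WT TCM libraries had 0.366 to 0.522, above all TRAP1 KO TCM and WT naive libraries, so the editor was most abundant relative to the presenting beta chain there. It was 0.305 ± 0.0119 in JMJD3 cKO TCM and 0.34 ± 0.00951 in JMJD3 WT TCM. H2-Aa over H2-Ab1 was 0.453 ± 0.0392 in TRAP1 KO TCM, 0.324 ± 0.0238 in WT TCM and 0.514 ± 0.0351 in WT naive. H2-Eb1 over H2-Ab1 was 0.577 ± 0.0237 in TRAP1 KO TCM, 0.375 ± 0.0451 in WT TCM and 0.643 ± 0.00762 in WT naive, so the chains did not fall in step. Cd74 over the 3 presenting chains was 2.34 ± 0.0479 in TRAP1 KO TCM, 2.64 ± 0.277 in WT TCM and 2.59 ± 0.0142 in WT naive. The TRAP1 KO TCM libraries had 2.29 to 2.4, below those of WT TCM (2.42 to 2.95) and WT naive (2.58 to 2.61). DO remained scarce beside DM: H2-Oa and H2-Ob together were 0.889% ± 0.284 of H2-DMa and H2-DMb1 in TRAP1 KO TCM, 0.999% ± 0.505 in WT TCM and 0.463% ± 0.432 in WT naive. These are SDs over the libraries of each group, and no test was run on the ratios.

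**Figure D4:**
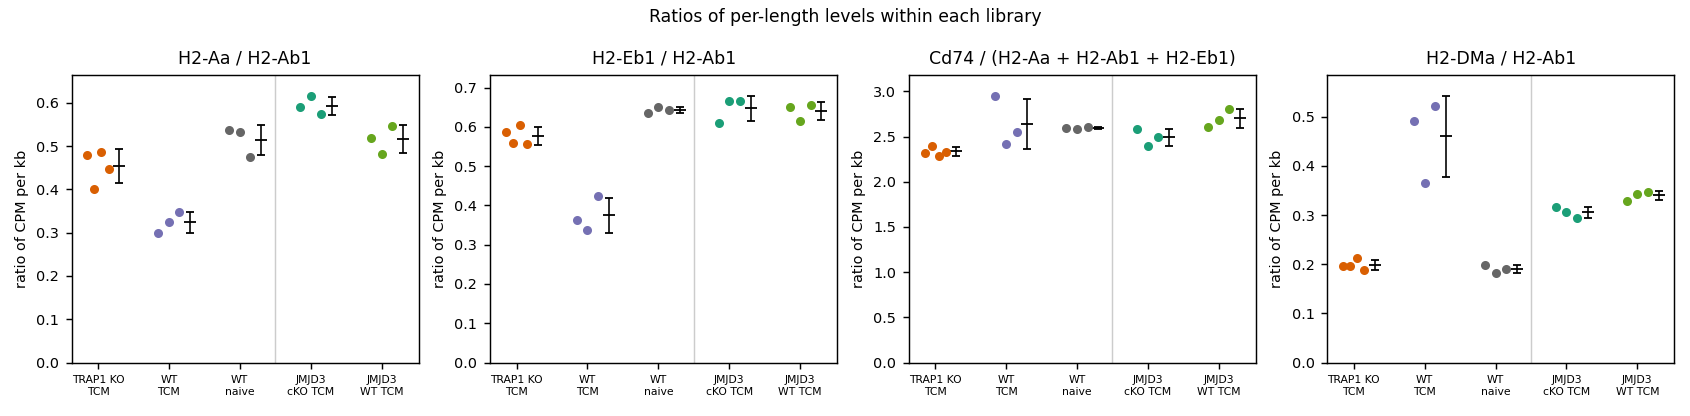
Ratios of per-length levels (CPM per kb) within each library, with mean and SD, on axes from 0. H2-DMa over H2-Ab1 is highest in WT TCM (0.366 to 0.522), where H2-Aa and H2-Eb1 over H2-Ab1 are lowest, while Cd74 over the presenting chains stays between 2.29 and 2.95 in all 16 libraries.

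Other class II loci were nearly silent. H2-Ea-ps, annotated as the pseudogene of the E alpha chain, had 1 count in the 16 libraries. H2-Eb1, the E beta chain, thus had almost no counted E alpha RNA beside it, and protein was not measured. H2-Eb2 had 0 to 4 counts per group, H2-Pb 0, and H2-Pa 2 counts in JMJD3 cKO TCM and 0 elsewhere.

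Genes that act around the 10 members did not follow a common direction. The promoter factors that hold CIITA in place (RFX, NF-Y and CREB1, 7 genes) changed little. Over all genes tested, 42.2% were called with TRAP1 loss, 42.2% with medium and 35.1% in libraries labelled JMJD3 cKO TCM. With TRAP1 loss, 2 of 7 were called higher, namely Nfya (0.15 ± 0.03) and Creb1 (0.14 ± 0.04), and 0 lower. With melanoma medium, Rfxap (0.27 ± 0.07) and Rfx5 (0.25 ± 0.10) were called higher and Nfya lower (-0.13 ± 0.03). In libraries labelled JMJD3 cKO TCM, Creb1 was called higher (0.18 ± 0.05) and Rfxank lower (-0.31 ± 0.10).

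The interferon gamma route to Ciita, 11 genes, was called higher in 5 and lower in 2 with TRAP1 loss, and higher in 4 and lower in 2 with medium. The share called over all genes was 42.2% with TRAP1 loss and 42.2% with medium. Ifngr1, the ligand-binding receptor chain, rose with TRAP1 loss (0.26 ± 0.02) and with medium (0.50 ± 0.02). Jak2, a kinase bound to the receptor, fell with medium (-0.21 ± 0.05). Socs1, a feedback inhibitor of JAK kinases, was 2.99 ± 0.541 CPM in TRAP1 KO TCM and 5.03 ± 1.56 CPM in WT TCM (-0.72 ± 0.17).

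In libraries labelled JMJD3 cKO TCM the same 11 genes leaned 1 way, with 8 called lower and 1 higher (median -0.22, against 0.008 over all genes). Among all genes tested there, 17.8% were called lower and 17.3% higher. Irf1, a factor that acts on the interferon-responsive Ciita promoter, was 160 ± 3.64 CPM in those libraries and 236 ± 6.19 CPM in JMJD3 WT TCM (-0.55 ± 0.03). Jak2 (-0.64 ± 0.04) and Socs1 (-1.02 ± 0.09) fell as well, and Ifngr1 rose (0.24 ± 0.03). The difference between the knockouts was called positive in 8 of the 11 and negative in 0, led by Irf1 (0.59 ± 0.05), Jak2 (0.61 ± 0.06) and Spi1 (0.38 ± 0.05). Over all genes it was called positive in 18.4% and negative in 19.5%.

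Endosomal processing genes were mixed. Ctss encodes cathepsin S, the main protease for the last cuts of the invariant chain in many antigen-presenting cells. It fell with TRAP1 loss (-0.56 ± 0.01), to 1880 ± 11.7 CPM in TRAP1 KO TCM, against 2790 ± 34.9 CPM in WT TCM. Lgmn, an asparagine endopeptidase, also fell there (-0.45 ± 0.01), while Ctsc (0.42 ± 0.01) and Ctsl (0.35 ± 0.01) rose. Of 11 genes, 4 were called higher and 5 lower with TRAP1 loss, 2 higher and 6 lower with medium, and 3 higher and 3 lower in libraries labelled JMJD3 cKO TCM. The shares of all genes called in these comparisons were 42.2%, 42.2% and 35.1%. With medium Ctsc rose (0.71 ± 0.02) and Ctsl (-0.34 ± 0.01), Ctsz (-0.37 ± 0.01) and Ctss (-0.29 ± 0.01) fell. In libraries labelled JMJD3 cKO TCM Ctsl rose (0.52 ± 0.02), as did Ifi30, a thiol reductase of endosomes (0.37 ± 0.05), and Sppl2a, which cuts the last membrane remnant of CD74, fell (-0.27 ± 0.03).

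Of 4 surface turnover genes, 2 were called higher and 1 lower with TRAP1 loss, 3 higher with medium, and 3 lower in libraries labelled JMJD3 cKO TCM. Among all genes, 42.2%, 42.2% and 35.1% were called in these comparisons. March1, a ubiquitin ligase that removes class II from the surface, rose with TRAP1 loss (0.23 ± 0.04) and with medium (0.33 ± 0.04). Cd86, a costimulator removed by the same ligase, rose in both (0.61 ± 0.06 with TRAP1 loss and 0.43 ± 0.07 with medium). Cd83, which shields class II from March1, fell with TRAP1 loss (-0.81 ± 0.09), to 9.18 ± 0.426 CPM, against 16.3 ± 1.84 CPM in WT TCM. All 3 fell in libraries labelled JMJD3 cKO TCM, with Cd86 at -0.75 ± 0.05.

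**Figure D5:**
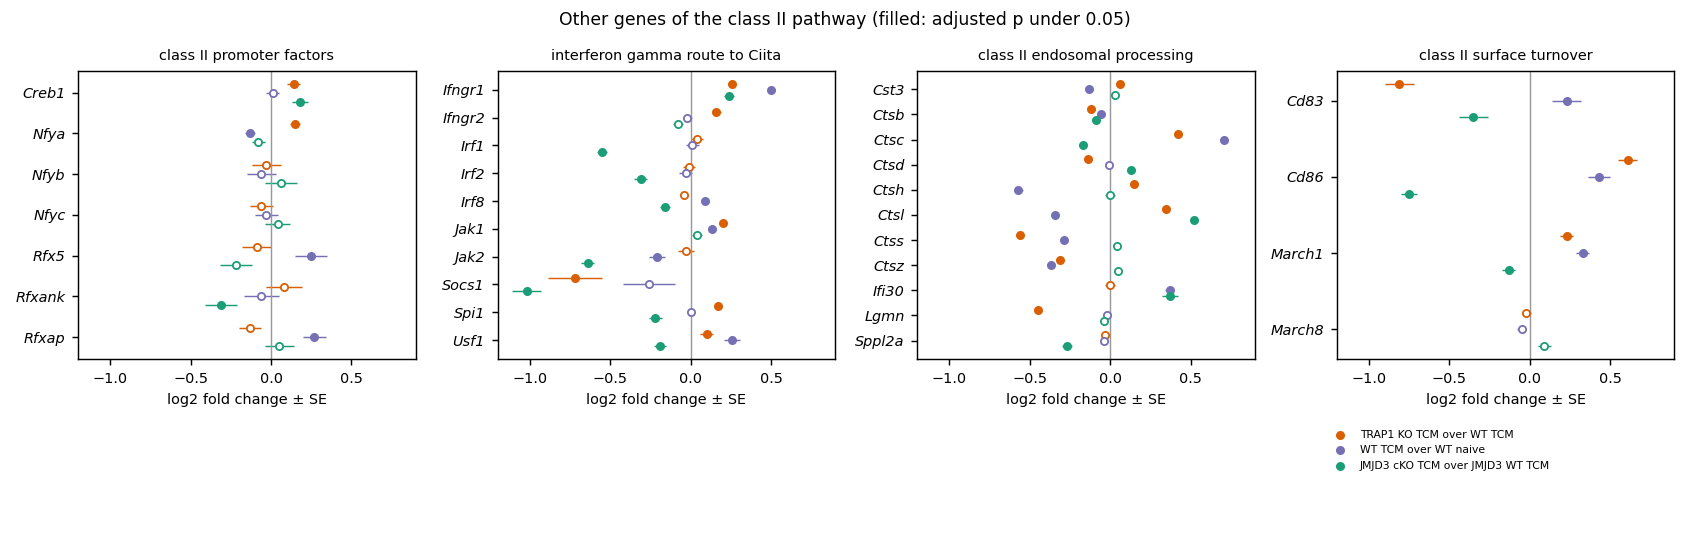
Log2 fold change ± SE of promoter factors, interferon gamma route, endosomal processing and surface turnover genes in the 3 comparisons, filled where the adjusted p was under 0.05. In the interferon gamma panel 7 of the 10 genes drawn lie below 0 and filled for JMJD3 cKO TCM over JMJD3 WT TCM. In that comparison 17.8% of all genes were called lower.

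Neighbouring genes in the class II region on chromosome 17 moved with the presenting chains in some comparisons and not in others. Outside the member list 6 genes there were tested, among them the class I peptide transporter genes Tap1 and Tap2, the immunoproteasome genes Psmb8 and Psmb9, and Brd2. In TRAP1 KO TCM 0 were called higher and 1 lower (Psmb9, -0.22 ± 0.03). With medium Tap2 (0.20 ± 0.04) and Psmb9 (0.14 ± 0.04) were called higher and Brd2 and Psmb8 (-0.12 ± 0.03) lower. In libraries labelled JMJD3 cKO TCM 5 of 6 were called lower, with Tap1 at -0.43 ± 0.03, Brd2 at -0.33 ± 0.03 and Tap2 at -0.40 ± 0.03. In JMJD3 WT TCM against WT TCM all 6 were called higher, as were the presenting chains, with Tap1 at 1.24 ± 0.02, Tap2 at 1.20 ± 0.04, Psmb9 at 1.13 ± 0.03 and Brd2 at 0.62 ± 0.03. Around Ciita, within 500 kb, 4 of 9 tested genes were called higher and 2 lower with TRAP1 loss, led by Clec16a (0.79 ± 0.06) and Emp2 (0.62 ± 0.08). Clec16a, a gene near Ciita, was 43.2 ± 1.84 CPM in TRAP1 KO TCM and 25.1 ± 1.19 CPM in WT TCM, and was not called with medium (-0.03 ± 0.06). With medium 1 of 9 was called higher and 3 lower, and in libraries labelled JMJD3 cKO TCM 1 of 8 higher and 4 lower. For both sets of neighbours, the share called over all genes was 42.2% with TRAP1 loss and 42.2% with medium. It was 35.1% in libraries labelled JMJD3 cKO TCM. In JMJD3 WT TCM against WT TCM, where all 6 class II neighbours were called higher, 61.3% of 14545 genes were called. Of those 14545 genes, 30% were called higher and 31.3% lower.

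The genes most like the presenting set were ranked over 16 libraries and 9827 genes by Pearson's r with the mean standardised log2 level of the presenting chains and Cd74, as a description. The highest were St3gal5 (0.986), Cttn (0.969), Ly6a (0.939), Srgn (0.938) and Col4a3bp (0.932). St3gal5 had 97.1 ± 4.05 CPM in TRAP1 KO TCM, 69.7 ± 1.0 CPM in WT TCM and 106 ± 1.01 CPM in WT naive. The lowest were P4hb (-0.961), Tecr (-0.931) and Slbp (-0.928). By Spearman's rho 0 of the 5 highest were shared, and without the WT naive libraries 2 of 5, so the ranking is loose.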

How the data were processed

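The authors deposited, for each library, the raw count of 54532 Ensembl gene identifiers. Per the submitters' processing notes, HISAT, StringTie, Bowtie2, RSEM and mm10 were used, with no version or role named. Which tool, annotation and strand setting gave the counts is not stated there. Libraries were stranded and depleted of ribosomal RNA, per the labels' protocols.

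Symbols came from GENCODE M21 for 54495 identifiers. The test was edgeR's robust quasi-likelihood F-test (edgeR 4.0.16, R 4.3.3) on TMM-scaled counts that passed filterByExpr at a minimum of 10, adjusted by Benjamini-Hochberg. It was first tested on simulated counts. The medium and TRAP1 comparisons came from 1 fit of 10 libraries, the JMJD3 comparison from a fit of 6, and the others from all 16, with no covariates. Residual degrees of freedom were 7, 4 and 11. The tests and intervals used edgeR's total, which adds degrees of freedom from the spread shared across genes. SE is the log2 fold change over the square root of F. DESeq2 (1.42.0), other scalings and filters, a replicate block and leaving out each library were alternatives.

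The members and gene lists were chosen with earlier results of these data known. All 10 members were named, and from each other list up to 3 called genes per direction with the smallest adjusted p. Clec9a, Ighm, Xcr1, Ms4a1 and other single markers, and Ctss under each comparison, were named with their values in view. Some genes of the lists are counted but not reported here by name or drawn. Depth of 15361604 to 22426820 counts per library leaves Ciita, H2-DMb2, H2-Oa and H2-Ob at few counts.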

Additional observations from a re-analysis of the deposited data

Results flagged for a closer look

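Within TRAP1 KO TCM, the group with 4 libraries, 50 genes were tested for a library set apart from the others, and 4 had one. Chance gives about 1 such gene in 20. H2-DMb2 had 1 library at 0.321 CPM, far below the other 3. Among the other genes, Ifi30 had 1 library at 159 CPM in a group of 155 ± 2.33 CPM. Ifngr1 had 1 at 308 CPM in a group of 310 ± 1.63 CPM, so both lay close to their group means. Prm1, a gene near Ciita, had 1 at 0.0951 CPM, a very low level.

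For 7 of the 9 members tested, the TRAP1 change differed from the JMJD3 change by a direct test in all 16 libraries (edgeR, adjusted over all genes). Among all 14545 genes in that test 37.9% were called, 18.4% positive and 19.5% negative. The log2 difference was 0.95 for H2-Aa, 0.67 for H2-Ab1, 1.29 for H2-Eb1, 0.81 for Cd74, 1.68 for Ciita, -0.37 for H2-DMa and -0.31 for H2-DMb1. The lines of the 2 knockouts differ too, and the parts cannot be told apart.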

How the results depend on the processing

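Of 692 recomputed log2 changes of members, 667 kept direction and call. Every call of H2-Aa, H2-Ab1, H2-Eb1, Cd74, H2-DMa and H2-DMb1 for medium, TRAP1, the difference and the wild-type sets held. Members called for medium were 8, with 7 in the fit of the groups compared only and 6 at a minimum of 50 counts, since H2-Ob was tested in neither and Ciita not in the second. Members called for JMJD3 were 2, with 6 under library totals and 1 to 4 when 1 library was left out. H2-Ob, uncalled, changed sign to 0.02 for TRAP1, 0.03 for the difference and 0.01 for the wild-type sets, each without WT TCM replicate 1. Over the left-out libraries H2-Ob ran from -0.45 to 0.02 for TRAP1, -0.25 to 0.28 for JMJD3, -0.48 to 0.06 for the difference and -0.45 to 0.01 for the wild-type sets. The difference for H2-Ob was 0.06 without JMJD3 cKO TCM replicate 2. For JMJD3, H2-Ob was 0.06 under library totals, 0.01 with no filter, 0.06 and 0.08 without JMJD3 WT TCM replicates 1 and 3, and 0.28 without JMJD3 cKO TCM replicate 3, and H2-DMa was 0.02 under library totals. The cause was not tested. The difference for H2-DMb2 was called without JMJD3 WT TCM replicate 1 (-1.51). Library totals moved the median of all genes by -0.17 between the wild types. Without the filter H2-Oa was not called in any comparison (adjusted p = 0.081 between the wild types, the lowest).

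Deviations of same-numbered libraries from their group means correlated at -0.085 to 0.077 between groups. These deviations also hold counting noise, so the values do not settle whether replicate numbers pair the libraries. With the replicate block, the members called stayed at 8 for medium, 7 for TRAP1, 2 for JMJD3, 7 for the difference and 8 for the wild types, and genes called were 5927, 5577, 4579, 5368 and 8886. With few counts, Ciita, H2-DMb2, H2-Oa and H2-Ob limit what these libraries can show.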
